A study of Homo sapiens with 6 samples.

Results

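The 44 genes described here encode the machinery of mitosis and of the passage from G2 phase into mitosis. They were chosen by symbol, from their known roles, among the 57781 gene rows of the table, and all 44 were found. Earlier results of these data were known when they were chosen. RNA-seq was performed in A549 cells, a human line of lung adenocarcinoma (a non-small cell lung cancer). The vector group held 3 libraries of vector-control cells with the genotype given as WT, and the shMETTL3 group held 3 libraries of cells in which METTL3, the catalytic subunit of the m6A RNA methyltransferase, was silenced by short hairpin RNA. Both groups were grown in DMEM with fetal bovine serum and antibiotics. The study's methods state in general that experiments were repeated independently, but neither they nor the labels say for these libraries whether replicates were separate cultures, transfections or hairpins. The p-values then measure only the spread between these samples, which may be technical.

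A cell enters mitosis when cyclin B and CDK1 become active, a step opened by CDC25 phosphatases and reinforced by polo-like and Aurora kinases. Kinetochores then attach chromosomes to the spindle, and the spindle assembly checkpoint holds the anaphase-promoting complex (APC/C) in check until every chromosome is attached. CDC20-bound APC/C marks securin and cyclin B for destruction, separase cuts cohesin, and the central spindle guides cytokinesis. In proliferating cells many of these genes are transcribed in a wave late in the cycle, through a pair of promoter elements. The CHR (cell cycle genes homology region) is bound by the MuvB core of the DREAM and B-MYB complexes, and the CCAAT box is bound by NF-Y.

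Those letters were common around the start sites of the mitosis and G2/M genes. The RefSeq promoter table (GRCh38.p14, 250 bases before to 50 after the start, a window of 300 bases) matched 36 of the 44 genes and 10635 of the tested genes. It had no entry for AURKA, BIRC5, BUB3, TTK, UBE2C, TPX2, RACGAP1 and FOXM1. For each gene only the first start listed was read, so elements at any other start site would not be seen. On either strand, TTTGAA stood in 25 of the 36 windows (69.4%), against 9.57% of the windows of all tested genes. TTTAAA stood in 12 (33.3%, against 7.63%) and TTCGAA in 2 (5.56%, against 1.75%). Any of these 3 CHR strings was found in 31 windows (86.1%), against 17.1% of all tested genes. CCAAT was found in 27 (75.0%), against 36.1%, and 25 windows (69.4%) held both elements, against 6.85%. In the 250 bases before the start alone, a CHR string was found in 26 of the 36 genes (72.2%, against 15.4%). TTTGAA stood there in 20 (55.6%, against 8.27%), TTTAAA in 11 (30.6%, against 7.23%), TTCGAA in 0 (against 1.42%) and CCAAT again in 27 (75.0%, against 34.4%). A CHR string and a CCAAT box can share a base, as in CDCA8 and MKI67, where a box read on the other strand begins at the last A of TTTGAA. Windows of the 36 genes had a median GC content of 61.3%, against 65.3% over all tested genes. A match is a string of letters, not a measured binding site.

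To show the CHR string in its context, a stretch of 30 bases is printed for the gene with the lowest log2 fold change of each functional group that held one, 5′ to 3′ on the gene's strand, with the string in capitals. The first bases of the strings lie at −29 (PLK1), −23 (CDCA8), 17 (NUF2), 2 (BUB1), −31 (ESPL1), −22 (HMMR), −20 (PRC1) and −29 (MKI67) from the start.
PLK1, chr16:23678848-23678877, plus strand: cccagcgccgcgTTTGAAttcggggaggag
CDCA8, chr1:37692481-37692510, plus strand: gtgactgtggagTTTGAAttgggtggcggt
NUF2, chr1:163321958-163321987, plus strand: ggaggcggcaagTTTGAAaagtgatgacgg
BUB1, chr2:110678045-110678074, minus strand: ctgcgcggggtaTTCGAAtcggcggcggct
ESPL1, chr12:53268256-53268285, plus strand: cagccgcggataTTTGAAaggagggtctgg
HMMR, chr5:163460598-163460627, plus strand: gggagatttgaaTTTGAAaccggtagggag
PRC1, chr15:90994538-90994567, minus strand: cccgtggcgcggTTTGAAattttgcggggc
MKI67, chr10:128126435-128126464, minus strand: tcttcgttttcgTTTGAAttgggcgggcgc
In HMMR the same 6 letters occur again directly before the marked string.

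The B-type cyclins CCNB1 and CCNB2 are shown as examples of CCAAT boxes followed by a CHR string. In CCNB1 the boxes began at −87 and −55, which is 32 bases apart, and TTTAAA at −30. In CCNB2 boxes began at −120, −87 and −54, at steps of 33 bases, with another at −244, and TTTGAA began at −29, with a TTTAAA farther out at −193. More than 1 box was not particular to the cyclins, since HMMR had 5 matches and PTTG1 had 3 before their CHR strings. The matches at −69 and −66 in HMMR, and at −51 and −48 in PTTG1, share bases. Each such pair is 1 stretch of letters that reads as CCAAT on both strands.
CCNB1 first box, chr5:69167051-69167080, plus strand: gaccggcagccgCCAATgggaagggagtga
CCNB1 second box, chr5:69167083-69167112, plus strand: gccacgaacaggCCAATaaggagggagcag
CCNB1 CHR string, chr5:69167108-69167137, plus strand: agcagtgcggggTTTAAAtctgaggctagg
CCNB2 box at −120, chr15:59105014-59105043, plus strand: aagaaaattcagCCAATgagagtgcgagag
CCNB2 box at −87, chr15:59105047-59105076, plus strand: atcttgtgttggCCAATgagaacagcgacc
CCNB2 box at −54, chr15:59105080-59105109, plus strand: gcgcagggccgcCCAATggggcgcaagcga
CCNB2 CHR string, chr15:59105105-59105134, plus strand: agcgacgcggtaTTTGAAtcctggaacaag
The CHR string nearest to the start began at a median of −23 over the 31 genes that had one, and the nearest CCAAT at −55 over the 27 that had one. In 22 genes each, it lay within the 100 bases before the start, and 17 genes had 2 or more CCAAT boxes.

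**Figure D1:**
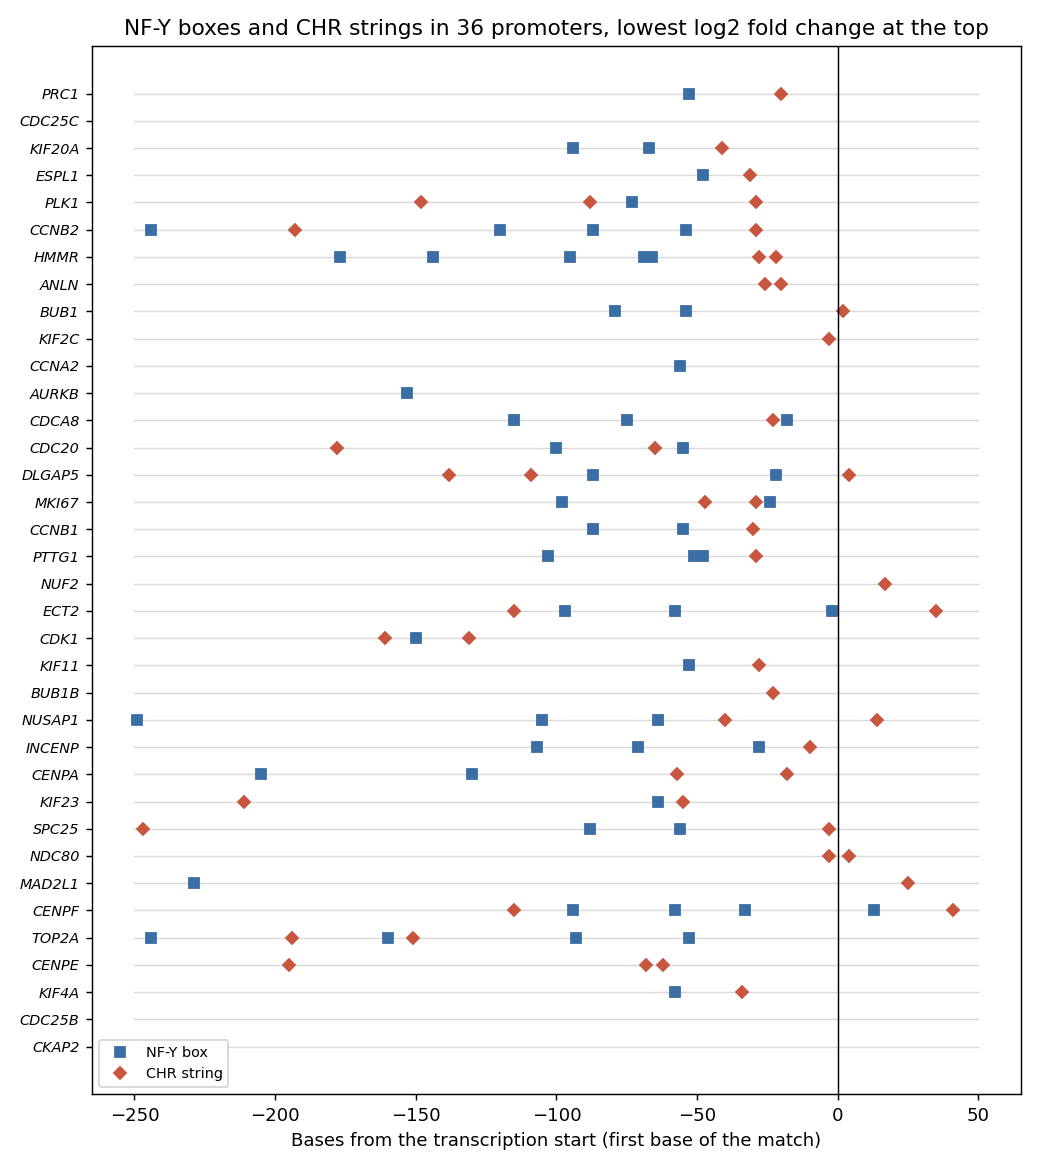
Position of CCAAT boxes (NF-Y boxes, squares) and CHR strings (diamonds) in the promoter windows of 36 mitosis and G2/M genes, in bases from the transcription start on the horizontal axis, with the gene of lowest log2 fold change at the top. CHR strings gather close before the start, with boxes farther out. CDC25C, CDC25B and CKAP2 had neither in the window of the start that was read.

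Libraries held between 14931426 and 19108928 counts (median 17756057 for vector and 18046241 for shMETTL3). At this depth 3 counts correspond to 0.149 to 0.189 CPM (counts scaled to sequencing depth, here with TMM factors of 0.920 to 0.953 in vector and 1.05 to 1.07 in shMETTL3). METTL3 itself stood at 49.4, 50.6 and 49.5 CPM in vector replicates 1 to 3 and at 18.8, 19.9 and 19.3 CPM in the shMETTL3 libraries. The means were 49.8 ± 0.674 and 19.3 ± 0.525 CPM (SD, n = 3), a log2 fold change of −1.36 ± 0.067 (SE) with adjusted p = 4.57e-16 in edgeR's quasi-likelihood test. The exact two-sided permutation test gave p = 0.1, the smallest that 3 against 3 libraries allow. Silencing was followed by a broad difference between the groups. Of 15125 genes with enough counts to be tested, 66.6% were called at an adjusted p under 0.05. Replicates of a group were far closer to each other (chi-square per degree of freedom 2.79 to 7.50 over 6 pairs) than to libraries of the other group (79.8 to 98.8 over 9 pairs).

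All 44 mitosis and G2/M genes fell in METTL3-silenced cells. Each passed edgeR's test at an adjusted p under 0.05, while 32.9% of all tested genes were called lower. In each of the 44, every shMETTL3 library lay below every vector library, as it did for 34.3% of all tested genes, and none had its shMETTL3 libraries above all vector libraries, as 35.2% of tested genes did. The median log2 fold change was −1.08, against 0.0022 over all tested genes, and it ran from −1.98 for PRC1 to −0.27 for CKAP2. Their level in shMETTL3 was a median of 47.4% of that in vector (24.6% to 82.7%). At a log2 fold change of −1 or below stood 24 of the 44, against 7.42% of all tested genes, and at −0.5 or below stood 40, against 18.9%. The genes lie on 18 chromosomes, and 7 of them had a lower log2 fold change than METTL3 itself.

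The shift was even over the libraries. Against the vector mean, the median over the 44 genes was −1.06, −1.10 and −1.05 log2 units in the 3 shMETTL3 libraries (SD 0.027). Their summed level was 3124, 3059 and 3038 CPM in vector and 1594, 1579 and 1589 CPM in shMETTL3, or 0.279% to 0.298% and 0.166% to 0.171% of all counts. In bulk RNA, fewer cells in G2 and mitosis and less of each mRNA per cell cannot be told apart.

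**Figure D2:**
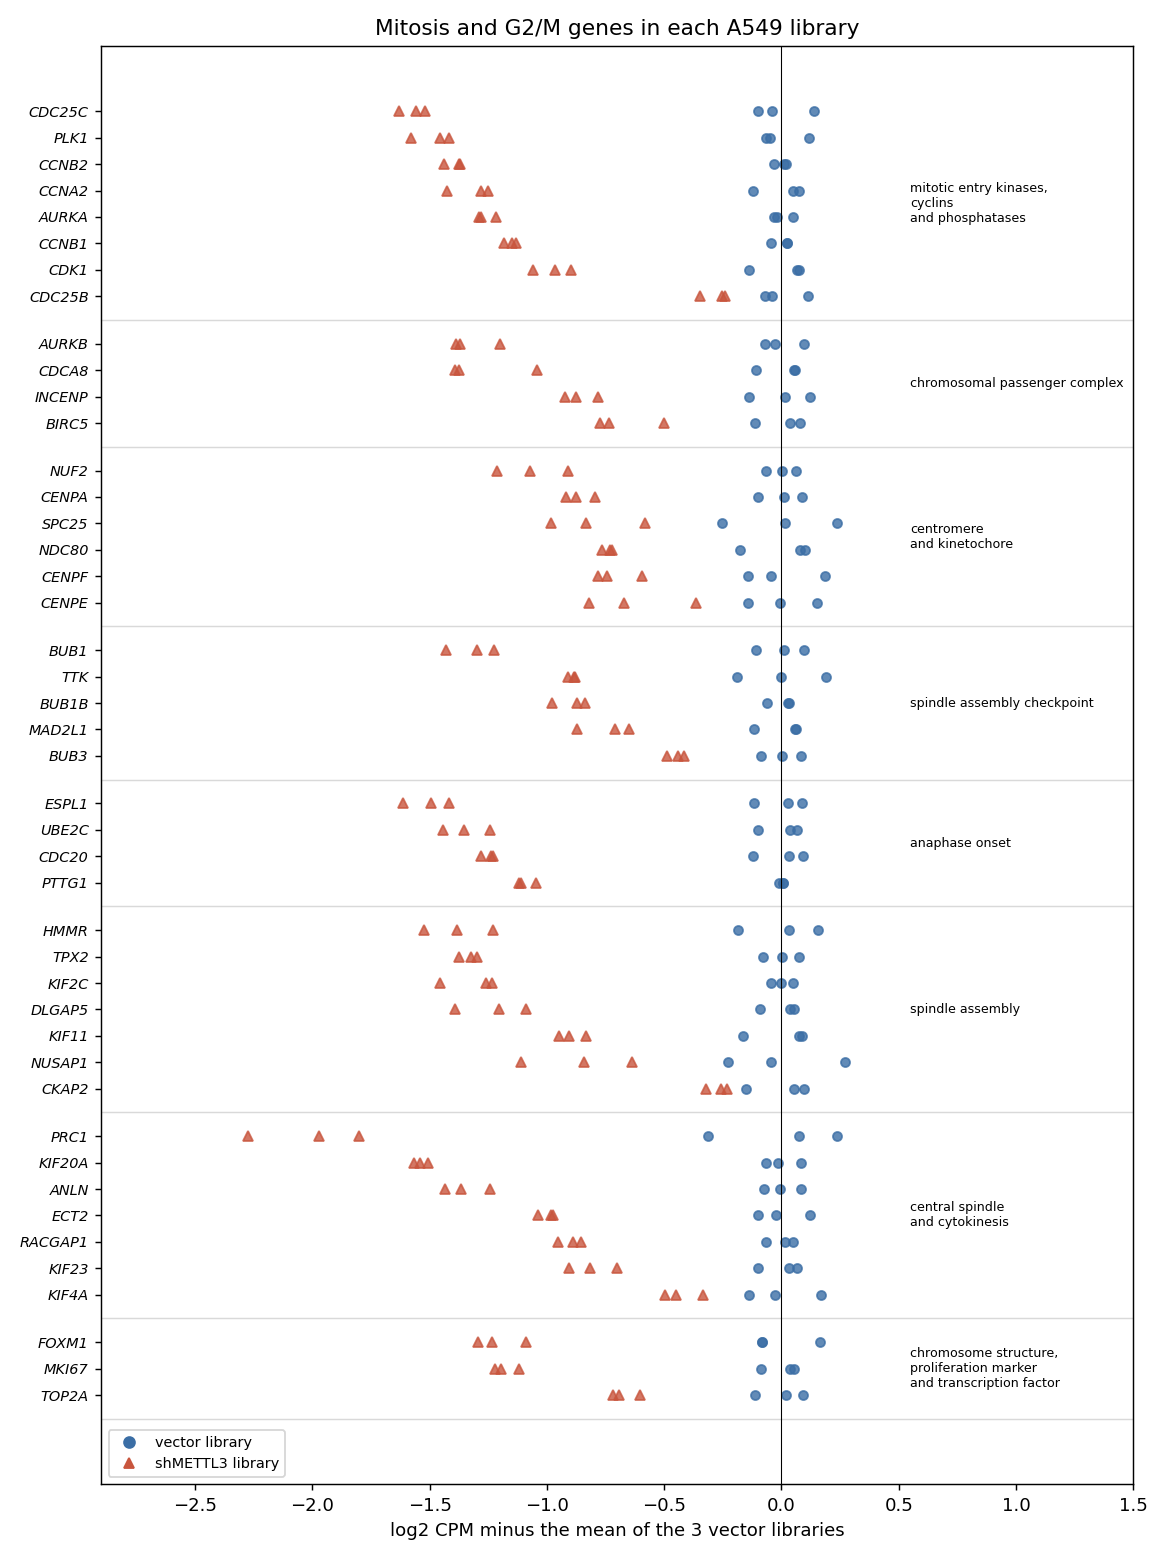
log2 CPM of each of the 44 genes in each library minus the mean of the 3 vector libraries (circles vector, triangles shMETTL3), grouped by role. In every row the 3 triangles lie left of the 3 circles, closest to them in CDC25B and CKAP2 and farthest in PRC1.

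Markers of cell identity moved as well, where 32.9% of all tested genes were called lower and 33.7% higher. All 5 epithelial markers fell, from a summed 8970–9580 CPM in the vector libraries to 3921–4317 CPM in shMETTL3, with EPCAM at a log2 fold change of −2.73 and CDH1, the epithelial cadherin, at −0.58. Of 8 lymphoid and myeloid markers, 3 were at 0 in all libraries and 1 could be tested. This was the monocyte co-receptor CD14, which rose (3.55), and the summed level went from 0.334–1.04 to 5.93–7.17 CPM. The summed level of 6 fibroblast markers was 6.46–9.86 CPM in vector and 14.3–14.7 CPM in shMETTL3, with COL1A1 rising by 0.90 and LUM at 0.46 without passing the test. Of 4 endothelial markers, 1 was at 0 in all libraries and only CDH5, which had 0, 0 and 2 counts in vector and 30, 28 and 30 in shMETTL3, could be tested and rose. Their sum was 0–0.184 CPM in vector and 1.44–2.01 CPM in shMETTL3. The part of these shifts in the fall of the mitotic genes was not tested.

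**Figure D3:**
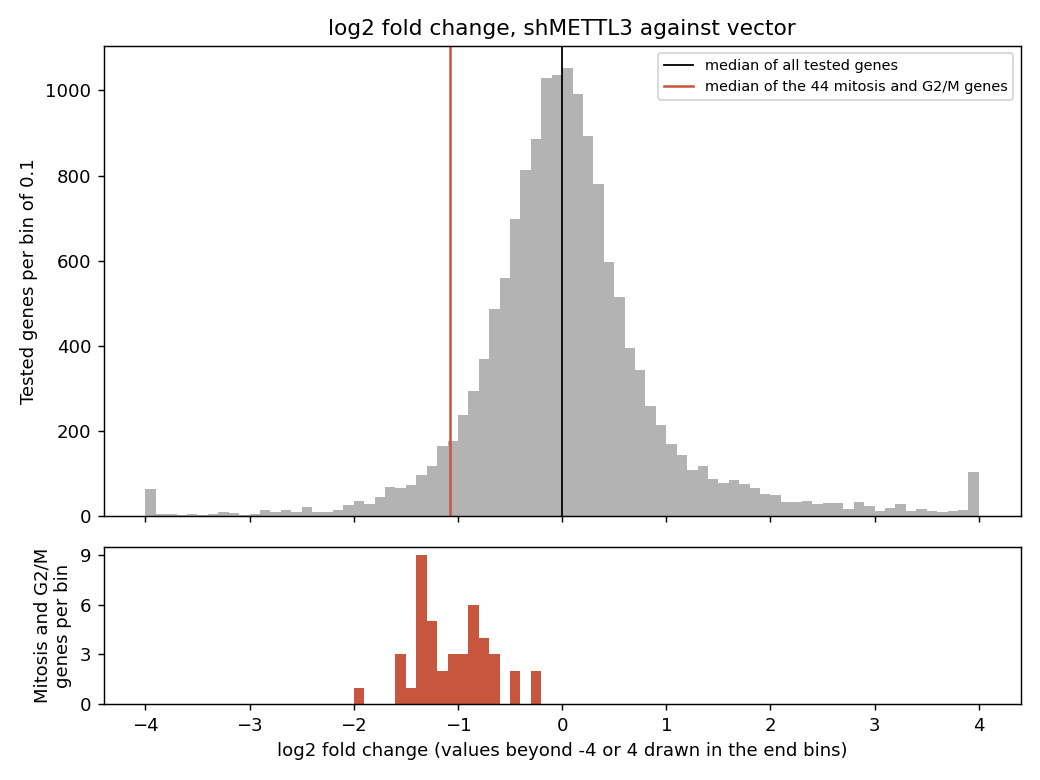
Number of genes per bin of 0.1 log2 fold change (shMETTL3 against vector) for all 15125 tested genes (grey, top) and for the 44 mitosis and G2/M genes (red, bottom). Vertical lines mark the medians, 0.0022 for all tested genes and −1.08 for the 44, and no mitosis and G2/M gene lies above 0.

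The 8 genes of mitotic entry had a median log2 fold change of −1.29. CDC25C, the phosphatase that activates cyclin B–CDK1 at entry, had the lowest value, within its error of PLK1. It stood at 15.3, 17.3 and 14.7 CPM in vector and 5.48, 5.08 and 5.35 CPM in shMETTL3, a log2 fold change of −1.57 ± 0.113 (SE) with edgeR adjusted p = 1.7e-12. Its relative CDC25B, which acts on the same kinase at the centrosome, was the least changed of the group. CDC25B stood at 242, 248 and 275 CPM in vector and 200.4, 214 and 216 CPM in shMETTL3 (−0.28 ± 0.054, edgeR adjusted p = 5.22e-05). The highest CDC25B library of shMETTL3 lay below the lowest of vector, but with library size alone as scaling its adjusted p was 0.0737.

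Both B-type cyclins, the activating partners of CDK1, fell with little spread between replicates. CCNB1 stood at 167, 167 and 159 CPM in vector and 74.3, 72.6 and 75.0 CPM in shMETTL3 (−1.15 ± 0.052, edgeR adjusted p = 5.68e-17). CCNB2 stood at 117, 118 and 114 CPM in vector and 44.8, 44.9 and 42.9 CPM in shMETTL3 (−1.39 ± 0.055, edgeR adjusted p = 3.2e-18). CDK1 fell by 0.98 and CCNA2, the cyclin of S and G2 phase, by 1.31 on the log2 scale. Polo-like kinase PLK1 fell by 1.49. AURKA, the Aurora kinase of the centrosome and spindle pole, stood at 92.5, 97.2 and 92.0 CPM in vector and 38.6, 40.3 and 38.4 CPM in shMETTL3 (−1.26 ± 0.057, edgeR adjusted p = 6.15e-17).

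The chromosomal passenger complex corrects faulty attachments at the centromere and later works at the central spindle. Its 4 subunits fell, with a median log2 fold change of −1.07. The kinase subunit AURKB stood at 31.4, 32.3 and 35.1 CPM in vector and 12.7, 14.3 and 12.6 CPM in shMETTL3 (−1.31 ± 0.081, edgeR adjusted p = 6.83e-14). The targeting subunit CDCA8 (borealin) fell by 1.27 and the scaffold INCENP by 0.86 on the log2 scale. BIRC5 (survivin), which docks the complex on chromatin, moved least of the 4. It stood at 25.4, 26.1 and 22.9 CPM in vector and 14.9, 14.5 and 17.5 CPM in shMETTL3 (−0.67 ± 0.086, edgeR adjusted p = 1.18e-07), and the groups did not overlap.

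Genes of the centromere and kinetochore had the shallowest median among the functional groups, −0.77 over 6 genes. NUF2, a subunit of the microtubule-binding NDC80 complex, stood at 13, 13.5 and 12.4 CPM in vector and 6.88, 5.58 and 6.16 CPM in shMETTL3 (−1.06 ± 0.115, edgeR adjusted p = 5.62e-09). Its partners in that complex fell by 0.75 (NDC80) and 0.80 (SPC25) on the log2 scale. CENPA, the histone H3 variant that marks centromeres, fell by 0.86 and CENPF, a protein of the outer kinetochore, by 0.71. CENPE, the kinesin that carries chromosomes to the spindle equator, stood at 9.46, 8.49 and 7.71 CPM in vector and 6.62, 4.83 and 5.35 CPM in shMETTL3 (−0.61 ± 0.138, edgeR adjusted p = 0.000328). The first shMETTL3 library was the highest of its group for CENPE and still below the lowest vector library.

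The 5 genes of the spindle assembly checkpoint had a median of −0.90. BUB1, a checkpoint kinase of the kinetochore, fell furthest of the 5, from 40.2, 42.6 and 37.0 CPM in vector to 14.8, 16.2 and 17.0 CPM in shMETTL3 (−1.32 ± 0.078, edgeR adjusted p = 2.48e-14). Its paralogue BUB1B (BUBR1), a part of the inhibitor that binds CDC20, stood at 38.6, 36.3 and 38.8 CPM in vector and 19.2, 21.2 and 20.7 CPM in shMETTL3 (−0.90 ± 0.072, edgeR adjusted p = 1.48e-11). TTK (MPS1), the kinase that starts the signal, fell by 0.90 and MAD2L1, another part of the inhibitor, by 0.74. BUB3, the adaptor that brings BUB1 and BUB1B to kinetochores, moved least. It stood at 142, 151 and 134 CPM in vector and 107, 101 and 105 CPM in shMETTL3 (−0.45 ± 0.054, edgeR adjusted p = 3.61e-08).

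At anaphase onset the 4 genes had a median of −1.30. ESPL1 (separase), the protease that cuts cohesin, stood at 32.7, 36 and 37.7 CPM in vector and 12.6, 13.2 and 11.6 CPM in shMETTL3 (−1.50 ± 0.082, edgeR adjusted p = 4.53e-15). Its inhibitor PTTG1 (securin) fell less. PTTG1 stood at 99.6, 99.6 and 98.5 CPM in vector and 48.1, 46.0 and 45.7 CPM in shMETTL3 (−1.09 ± 0.055, edgeR adjusted p = 6.73e-16). The APC/C coactivator CDC20 fell by 1.25 and UBE2C, the ubiquitin-conjugating enzyme that serves the complex, by 1.35. The near copies PTTG2 and PTTG3P had no count in any library.

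Spindle assembly was represented by 7 genes with a median of −1.23. HMMR, a microtubule-binding protein of the spindle poles, stood at 28.0, 25.8 and 22.2 CPM in vector and 9.67, 8.76 and 10.8 CPM in shMETTL3 (−1.39 ± 0.099, edgeR adjusted p = 1.41e-12). TPX2, which activates AURKA, fell by 1.33, the microtubule-depolymerising kinesin KIF2C by 1.32 and DLGAP5 (HURP), which stabilises kinetochore fibres, by 1.23. KIF11, the motor that pushes spindle poles apart, fell by 0.90. NUSAP1, a spindle-bundling protein, fell by 0.87 at low levels of 3.43 to 4.84 CPM in vector and 1.86 to 2.58 CPM in shMETTL3. CKAP2, a microtubule-stabilising protein, and CDC25B had the log2 fold changes nearest to 0, which differed by less than their errors. CKAP2 stood at 36.3, 37.4 and 31.5 CPM in vector and 29.8, 29.2 and 28.0 CPM in shMETTL3 (−0.27 ± 0.073, edgeR adjusted p = 0.00178), and with library size alone as scaling its adjusted p was 0.26. With GC and length offsets its log2 fold change was −0.50, and that of CDC25B −0.34.

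The 7 genes of the central spindle and cytokinesis had a median of −1.0. PRC1, which cross-links antiparallel microtubules at the midzone, had few counts: 23, 24 and 16 in vector and 6, 7 and 4 in shMETTL3. It stood at 1.28, 1.43 and 0.98 CPM in vector and 0.310, 0.349 and 0.252 CPM in shMETTL3 (−1.98 ± 0.394, edgeR adjusted p = 6.66e-05), so the lowest log2 fold change of the 44 also had the largest error. KIF20A (MKLP2), the kinesin that carries the passenger complex to the midzone, fell by 1.54 on the log2 scale, and ANLN (anillin), the scaffold of the contractile ring, by 1.35. Centralspindlin fell less, its kinesin KIF23 by 0.80 and its GTPase-activating subunit RACGAP1 by 0.90. ECT2, the exchange factor that centralspindlin recruits to activate RhoA, fell by 1.0.

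KIF4A, a chromokinesin that works with PRC1 at the midzone, moved least of the cytokinesis genes. It stood at 39.3, 31.7 and 34.3 CPM in vector and 27.8, 25.6 and 24.8 CPM in shMETTL3 (−0.43 ± 0.078, edgeR adjusted p = 2.45e-05). It was the only one of the 44 on chromosome X (GRCh37 chromosome X, 69509954 to 69640736, plus strand). Of 461 tested genes on that chromosome, 376 (81.6%) rose and 24 (5.21%) fell, with a median log2 fold change of 0.74. KIF4A was thus among the 24 that fell, and the part of the chromosome-wide difference in its smaller change was not tested.

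FOXM1, a transcription factor of the late cell cycle, stood at 55.2, 55.2 and 65.6 CPM in vector and 23.8, 27.4 and 24.8 CPM in shMETTL3 (−1.21 ± 0.075, edgeR adjusted p = 7.42e-14). MKI67, whose protein Ki-67 coats mitotic chromosomes and is the usual marker of proliferating cells, fell by 1.18. TOP2A, which untangles sister DNA, stood at 279, 265 and 242 CPM in vector and 172, 159 and 162 CPM in shMETTL3 (−0.67 ± 0.055, edgeR adjusted p = 2.43e-11). TOP2A and CDC25B had the highest CPM of the 44, at vector means of 262 ± 18.5 and 255 ± 17.6 CPM (SD, n = 3), which differed by less than the replicate spread. In shMETTL3 CDC25B was higher, at 209.9 ± 8.32 against 164 ± 6.82 CPM (SD, n = 3).

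Ratios within a library do not depend on how libraries are scaled to each other, and they were compared for 4 pairs of relatives by exact two-sided permutation tests, with p adjusted over the 4 pairs. The log2 ratio of CCNB1 to CCNB2 counts was 0.516, 0.504 and 0.490 in vector and 0.729, 0.693 and 0.807 in shMETTL3. It was higher by 0.24 in shMETTL3, with the groups apart (exact p = 0.1, adjusted 0.133). For CDC25B to CDC25C it was 3.99, 3.84 and 4.23 in vector and 5.19, 5.39 and 5.34 in shMETTL3, a difference of 1.29 (exact p = 0.1, adjusted 0.133). BUB1 to BUB1B went the other way, from 0.059, 0.230 and −0.065 to −0.379, −0.383 and −0.280, a difference of −0.42 (exact p = 0.1, adjusted 0.133). For AURKA to AURKB the values overlapped, at 1.56, 1.59 and 1.39 in vector and 1.60, 1.49 and 1.61 in shMETTL3, a difference of 0.055 (exact p = 0.5). Leaving out 1 library gave −0.0068 to 0.093, so its sign was not settled. With 3 libraries a side the smallest possible p is 0.1, so none of the 4 differences could pass the threshold of 0.05.

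Compared per kilobase of transcript, the levels of the 44 genes in vector ran from 0.401 CPM per kb for PRC1, whose counts are few, and 1.0 for CENPE, the next lowest, to 139 for PTTG1. Securin, with 65.1 CPM per kb in shMETTL3, was followed in vector by CDC25B (81.8), CCNB1 (81.2) and CCNB2 (78.1), and CDC25B differed from both cyclins by less than the spread of its own replicates. In shMETTL3 that neighbourhood was spread out, with CDC25B at 67.3, CCNB1 at 36.5 and CCNB2 at 29.7 CPM per kb. The order of the 44 genes was otherwise much alike in both groups (Spearman rho 0.969 across 44 genes, a description over genes that share libraries and lengths).

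**Figure D4:**
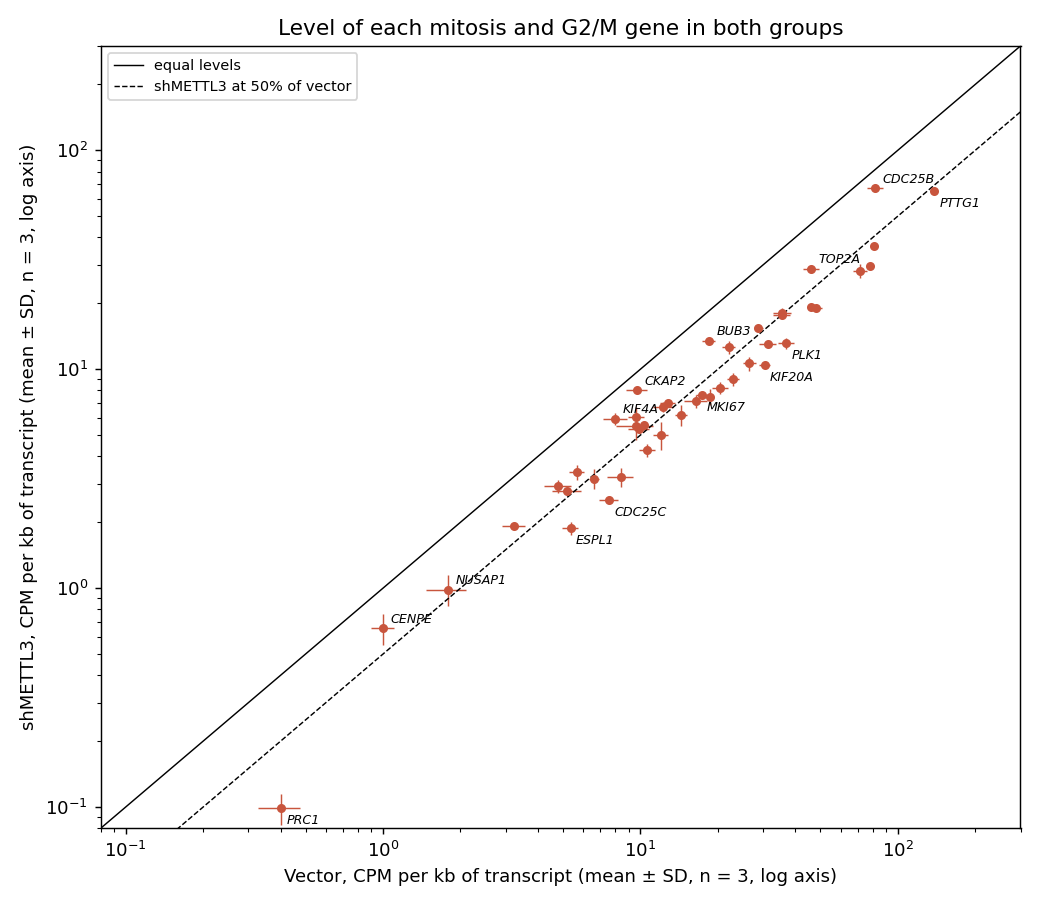
Level of each of the 44 genes in vector (horizontal) and shMETTL3 (vertical), in CPM per kb of transcript on log axes, as mean ± SD of 3 libraries. Every gene lies below the line of equal levels, with CDC25B and CKAP2 nearest to it, and PRC1 is the lowest in both groups.

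Depth was ample for most of these genes, since 38 of the 44 had 100 or more counts in every library. PRC1 and NUSAP1, the genes with the fewest, had another limit. In the newer GENCODE annotation, 57.6% of the exonic bases of PRC1 and 81.4% of those of NUSAP1 also belong to an unnamed gene on the same strand, so their counts depend on how shared bases were assigned and their values are uncertain. CENPA (with SLC35F6) and BUB1B (with PAK6 and the readthrough BUB1B-PAK6) share shorter stretches. Exons of 14 of the 44 overlap 16 genes on the opposite strand, and without a stated strand setting reads of the partners cannot be told apart there. Of the 8 partners that could be tested, 2 fell, 3 rose and 3 were not called. The fall of FOXM1 stood beside ITFG2, which rose by 0.39 and covers 15.9% of the exonic bases of FOXM1. The fall of CDC25C stood beside FAM53C, which rose by 0.31, that of KIF4A beside PDZD11, which rose by 0.51, and that of KIF20A beside BRD8, at −0.28, and CDC23, at −0.12 without passing the test. EXOSC9, opposite CCNA2, was not called at 0.05. The widest opposite-strand overlap was PRC1-AS1, which covers 34.3% of the exonic bases of PRC1 and was not called at 0.57. OIP5, opposite 9.76% of the exonic bases of NUSAP1, fell by 0.79. On the strand of NUSAP1, OIP5-AS1 shares 5.4% of them, holds 25262 counts over the 6 libraries and fell by 0.48.

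Of the features that the choice of genes did not use, transcript length was similar (median 3044 bases, against 3230 over the 13873 tested genes with a value) and GC content lower (43.8% against 48.3%). GGACT, the commonest core of the m6A sequence motif, occurred at a median of 0.693 per kb in the canonical transcripts of the 44 genes and 0.918 per kb in all tested genes, and was missing from 4.55% and 9.90% of transcripts. Letters of the motif are no measure of methylation. Within the 44 genes the log2 fold change varied little with GGACT per kb (Pearson's r 0.044, Spearman's rho 0.14), and more with length (r 0.28, rho 0.31) and GC content (r −0.26, rho −0.32). These are descriptions across 44 genes of the same libraries. For the 25 genes with TTTGAA in the promoter window the log2 fold change had its median at −0.98, and for the 11 without it at −1.31. Some of these 11 held another CHR string. The 31 genes with any of the 3 CHR strings had a median of −1.06, and the 5 without one −1.31. The 27 with CCAAT had −1.15 and the 9 without it −0.90. Among the 3 genes with neither element in the window that was read, CDC25B and CKAP2 had the values nearest to 0 of the 44. CDC25C, the third, stood at −1.57.

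Further genes of the mitotic machinery were read from the same fit, in which 32.9% of all tested genes were called lower and 33.7% higher. Of 19 tested further genes of spindle and cytokinesis, 18 fell and none rose (median −0.98). They ran from TROAP, a spindle-associated protein, at −1.78 to the kinesin KIF18A, which was not called at −0.24 (edgeR adjusted p = 0.0624). KIF18A passed the test in 3 of 16 other fits, at −0.46 and −0.45 with GC and length offsets without and with the replicate block, and at −0.34 without vector replicate 2. It was nearer to 0 in others, at −0.14 without vector replicate 1 and −0.06 with library size alone (edgeR adjusted p = 0.307 and 0.643). Condensin, which compacts chromosomes, had 7 of 8 subunits lower and 1 higher (median −0.68), from NCAPG at −1.20 to SMC2 at 0.18. The call of SMC2 was marginal (edgeR adjusted p = 0.0486) and was lost, or its sign turned, in 10 of 16 other fits. Among 31 other kinetochore and centromere genes 21 fell and 4 rose (median −0.46), from SPC24 at −1.36 to CENPC at 0.35, a call lost in 8 of 16 other fits. Among 16 other regulators of entry and exit 12 fell and 1 rose (median −0.43). PKMYT1, a kinase that inhibits CDK1, fell by 1.54 on the log2 scale, and the phosphatase CDC14B was the one that rose, by 1.10.

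APC/C and cohesin also act outside mitosis. Of 15 genes of APC/C with its coactivator and enzymes, 5 fell and 6 rose (median −0.07), from the ubiquitin-conjugating enzyme UBE2S at −0.51 to the subunit CDC26 at 0.59, close to the background share of each direction. Their median was −0.09 without vector replicate 2 and −0.03 without shMETTL3 replicate 3. Of 12 cohesin genes, 5 fell and 5 rose (median 0.08), from SGO1, the protector of centromeric cohesin, at −0.93 to the ring subunit SMC1A at 0.60. Of the 12, 10 were called here, 8 or 9 when any 1 library was left out, and 7 with DESeq2. Their median was 0.04 without vector replicate 3 and 0.12 without vector replicate 1. SMC1A and STAG2, which rose by 0.48, lie on chromosome X, where most tested genes rose. Over these 6 lists together, 68 of 101 tested genes fell and 17 rose (median −0.43), against the background of 32.9% called lower and 33.7% called higher.

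Of 13 tested components of the DREAM, B-MYB and NF-Y complexes, 3 fell, 3 rose and 7 were not called (median −0.04), beside 32.9% called lower and 33.7% higher among all tested genes. Leaving out 1 library gave 5 to 7 calls and a median of −0.11 (without vector replicate 3) to −0.03 (without vector replicate 1). Most subunits of the MuvB core and of NF-Y were among those not called. LIN9, LIN37, LIN52, LIN54, NFYA and NFYC did not pass the test, while RBBP4 fell by 0.21 and NFYB rose by 0.37 on the log2 scale. MYBL2, which encodes B-MYB and is itself a cell cycle gene, stood at 74.2 ± 5.83 CPM in vector and 31.4 ± 1.75 CPM in shMETTL3 (SD, n = 3), a log2 fold change of −1.24. RBL1 (p107), a pocket protein of repressive DREAM, rose by 0.62, from 12.6 ± 2.07 to 19.3 ± 1.67 CPM (SD, n = 3). For comparison, 22 of 25 S-phase genes fell and 1 rose (median −0.57), against the same 32.9% called lower over all tested genes. The licensing factor CDT1 fell by 1.79 on the log2 scale and the polymerase subunit POLA1, on chromosome X, rose by 0.35. Lower levels were therefore measured in S-phase genes too.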

How the data were processed

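Total RNA of 6 A549 samples was sequenced, 3 vector and 3 shMETTL3. The authors deposited raw read counts per gene symbol. Per the submitters' processing notes, reads were trimmed with cutadapt 3.0, aligned to hg19 with HISAT2 2.2.1 and counted with HTSeq 0.13.5, with SAMtools 1.13 also named. The methods of the study name other versions of the aligner and the counter. The gene annotation and the strand setting are not given in the sources used here.

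From these counts, genes were kept by filterByExpr, scaled by TMM and tested with edgeR 4.0.16 (glmQLFit, glmQLFTest, R 4.3.3), and p was adjusted by Benjamini-Hochberg over all 15125 tested genes, with the threshold at 0.05. Group was the only term. CPM uses TMM-scaled library sizes. Columns of counts were matched to samples by group and number. Permutation of METTL3 used log2(CPM + 0.1). The floor of 3 counts covers counting error only. The fit was tested on simulated data with 193 changed genes, in both directions. It called 165 of them, all in the right direction, and 9 unchanged genes. At a log2 size of 0.5 it called 39 of 64. With so few changed genes, the simulation does not test the scaling where 66.6% of genes are called. DESeq2 1.42.0, limma 3.58.1 (voom), other scalings and filters, a replicate block, offsets for GC content and length, and leaving out each library were alternatives.

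The 44 genes and the other lists were chosen with earlier results of these data known. Named were all 44 genes, with values in each library for the lowest and highest log2 fold change of each role, for the paralogue pairs, for chromosome X and for genes whose call differed between fits, and the lowest and highest gene of each other list. The genes that overlap the 44, the subunits of MuvB and NF-Y and the individual markers were named after their values were seen. Gene positions and transcripts came from GENCODE v44 lifted to GRCh37, with values for 91.7% of tested genes, and promoters from RefSeq.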

Additional observations from a re-analysis of the deposited data

How the results depend on the processing

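All 44 mitosis and G2/M genes stayed lower and past the threshold with DESeq2, limma-voom, RLE or upper-quartile scaling, no filter, an adjusted p of 0.01, GC and length offsets, and without any 1 library. Scaled by library size alone, 42 of the 44 did. CDC25B (−0.11) and CKAP2 (−0.10) then missed it, and the median of all tested genes rose to 0.18, so that 65.8% of called genes were higher instead of 50.6%. The median of the 44 was then −0.90, or −1.08 relative to all genes. Scaling moves nearly all genes alike, so this difference could hardly change and is no separate check. With at least 10 counts in every library PRC1 was no longer tested and 43 of 43 fell, with a median of −1.04. The median was −1.21 with GC and length offsets, also with the block added, and −1.13 to −1.04 without 1 library. With an absolute log2 fold change of at least 1 required, 2668 genes were called instead of 10067, with 24 of the 44 changed, all 24 lower. SMC2 turned to −0.024 with the offsets, with or without the block. The number of genes called was 9410 to 10072 without 1 library. Replicate numbers were shared between groups, but deviations of libraries with the same number correlated at only 0.069, −0.024 and 0.039. The counts thus show no pairing by number, but cannot exclude that such libraries were prepared together. With the replicate block 10111 genes were called and 44 of the 44 fell (median −1.08). Depth limits PRC1 most, with as few as 4 counts.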
